A study of Homo sapiens with 3 samples.

Results

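RNA sensors and interferon-stimulated genes were examined in Rh-30, an established line of alveolar rhabdomyosarcoma cells, a childhood muscle-lineage tumor, with the PAX3-FOXO1 fusion. The 51 genes were listed by symbol, from the sensors of viral RNA through the interferon receptor and its transcription factors to the antiviral effectors. Of these, 50 had a probe set that the platform annotation pairs with that gene alone, out of 19752 such genes on the array, and STAT2 is not analysed here. Rh-30 cells were transfected with a control siRNA (siCont), an siRNA across the PAX3-FOXO1 junction (siPF) or an siRNA against B7-H3, the protein of the CD276 gene (siB7-H3), each at 5 nM with a lipid reagent, and total RNA was taken 24 h later. Each condition has 1 Affymetrix expression array, so every difference below lies between 2 arrays, has no replicate error and carries no test. All 3 arrays come from cells that received an siRNA and the lipid reagent, each target was silenced with a single siRNA, and no untransfected Rh-30 cells were used here.

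RIG-I (the RIGI gene), MDA5 (IFIH1) and LGP2 (DHX58) recognize viral RNA in the cytoplasm, and TLR3 recognizes double-stranded RNA in endosomes. RIG-I and MDA5 signal through the mitochondrial adaptor MAVS to IRF3 and IRF7, which switch on type I interferon genes. Interferon then acts on the IFNAR1 and IFNAR2 receptor through the kinases JAK1 and TYK2, and a transcription factor complex that contains STAT2 and IRF9 binds the interferon-stimulated response element in the promoters of interferon-stimulated genes. Many of the sensors and factors are induced by interferon themselves, so the pathway feeds back on its own parts.

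The promoters were read for this response element, because it is the sequence that members of the list are known for. The rule that chose them did not use the sequence. Many were listed as interferon-stimulated genes, however, so a high share may follow from that choice. RefSeq promoter windows on GRCh38.p14, from 250 bases before to 50 bases after a transcription start, were found for 40 of the 51 genes. The core was searched as GAAANNGAAA and its reverse complement TTTCNNTTTC, overlapping matches included. At least 1 match was present in 23 of the 40 genes (57.5%), against 1195 of 27305 genes with a window (4.38%). It was present in 14 of 17 antiviral effectors (82.4%), in 5 of 8 genes of the ISG15 and ubiquitin system, in 2 of 4 sensor and adaptor genes and in 2 of 4 double-stranded RNA-binding enzymes. None of the 7 receptor, kinase and transcription factor genes with a window held it. A match describes these letters in this window and does not show binding.

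**Figure D1:**
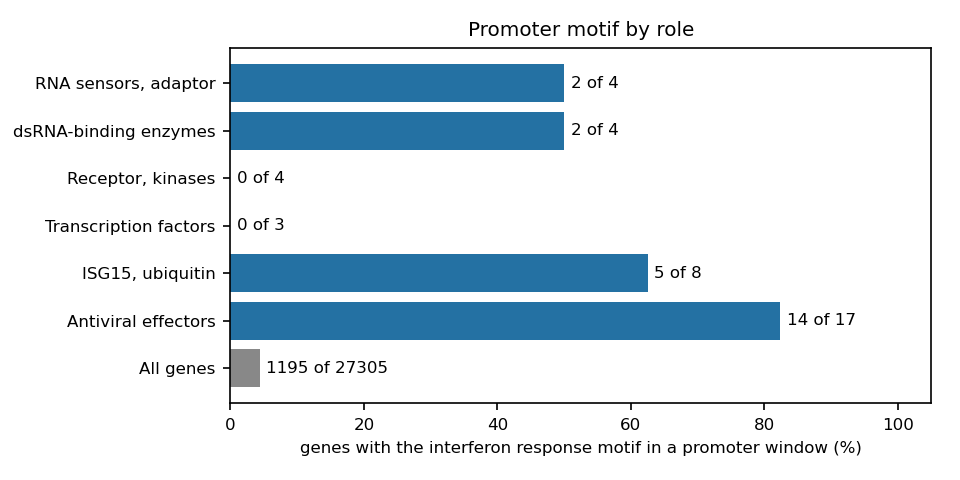
Share of genes (horizontal axis, percent) whose RefSeq promoter windows hold the interferon response motif, by role of the member genes and for all genes with a window, with the counts beside the bars. Antiviral effectors reach 82.4%, the receptor and transcription factor groups 0, and all genes 4.38%.

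Stretches of up to 46 bases around the match nearest to a transcription start, ending before the start, are shown for 4 members that were well measured on the arrays and 4 that were dim, to set the same element side by side in both. All are written 5′ to 3′ on the strand of the gene, and capitals mark the matches. Well measured were GBP1 (chr1:89065308-89065353, minus strand), IFI44 (chr1:78649753-78649788, plus strand), ISG15 (chr1:1013372-1013417, plus strand) and IFIT1 (chr10:89392502-89392547, plus strand):
GBP1: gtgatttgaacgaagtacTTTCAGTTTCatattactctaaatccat
IFI44: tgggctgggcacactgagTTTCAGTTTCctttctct
ISG15: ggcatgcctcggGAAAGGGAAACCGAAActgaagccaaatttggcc
IFIT1: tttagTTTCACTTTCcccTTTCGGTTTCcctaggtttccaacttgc
The dim ones were IFI44L (chr1:78620357-78620402, plus strand), BST2 (chr19:17405727-17405772, minus strand), RSAD2 (chr2:6877614-6877659, plus strand) and IFI27 (chr14:94110623-94110668, plus strand):
IFI44L: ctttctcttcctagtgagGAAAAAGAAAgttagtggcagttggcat
BST2: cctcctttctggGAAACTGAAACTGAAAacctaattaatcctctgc
RSAD2: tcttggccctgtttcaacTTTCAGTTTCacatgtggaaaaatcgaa
IFI27: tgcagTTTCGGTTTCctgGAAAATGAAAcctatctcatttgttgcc
The motif was thus not limited to members with a measurable signal. It was found in 16 of 28 genes with a window among the well-measured members and in 7 of 11 among the dim ones. GBP1 had a single match in its window, whereas ISG15 and BST2 each had overlapping matches.

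Values are linear intensities, and the mean intensity after trimming 2% of probe sets at each end was 500.1 on every array. Where a gene has several probe sets, the brightest by mean log2 intensity represents it. A gene is called measurable if any array reached a log2 intensity of 7.08, and dim otherwise. CD276 went from 1486 in siCont to 362 in siB7-H3 and was 1381 in siPF. FOXO1, the 3′ partner of the fusion, went from 678 in siCont to 249 in siPF. PAX3, the other partner, moved less, with 380.5, 329 and 398 in siCont, siPF and siB7-H3. Another measurable PAX3 probe set gave 233, 194 and 154, lowest in siB7-H3. Skeletal muscle markers were present, with 8 of 9 measurable. Of the leukocyte markers 2 of 9 were measurable (CD79A and CD53, at most 197) and PTPRC, which marks all leukocytes, was at most 72.3. The summed intensity of the leukocyte markers was 590.1, 636 and 676 in siCont, siPF and siB7-H3. Of the epithelial and endothelial markers 2 of 10 were measurable, KRT7 at 409.5 to 475 and PECAM1 at 621 to 910.1, and their summed intensity was 1217, 1209 and 1471. The part of these markers in the values below was not tested. In RNA from a whole culture, fewer cells with a transcript and less transcript per cell cannot be told apart.

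Of the 50 genes, 36 were measurable and 14 were dim. Nearest to the level were OASL among the measurable genes, with a highest intensity of 215, and MX2 among the dim ones, with a highest intensity of 90.0. Many textbook interferon-stimulated genes were on the dim side, among them MX1, MX2, OAS1, OAS2, RSAD2, BST2, IFI27 and IFI44L. ISG15, the IFIT genes, the IFITM genes, IFI44, GBP1 and HERC5 were on the measurable side on all 3 arrays. The interferon genes themselves were dim, with IFNB1, which encodes interferon beta, at 1.91, 38.6 and 7.27 in siCont, siPF and siB7-H3. IFNB1 had the largest rise among the interferon genes listed, and these went both ways. IFNA1 and IFNG were also above siCont on both knockdown arrays, and IFNK was below it on both. IFNE was below siCont in siPF only, and IFNA2 and IFNL1 in siB7-H3 only. No direction can be read for interferon genes at these intensities, IFNB1 included.

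**Figure D2:**
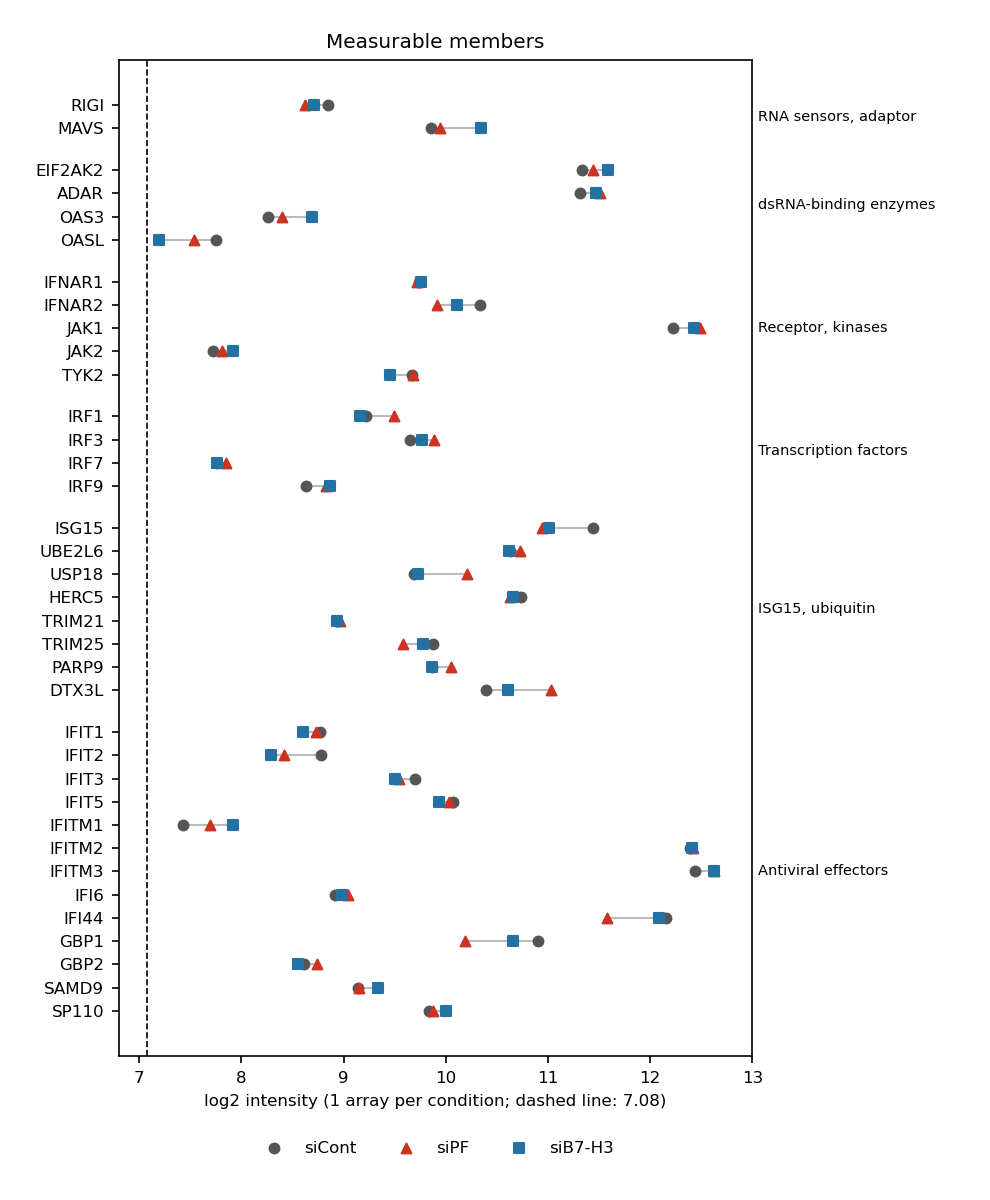
Log2 intensity (horizontal axis) of the 36 measurable genes, 1 point per array, grouped by role. The points of a gene lie within 2-fold of siCont in every case, and the widest spreads are those of GBP1 and DTX3L. Levels of different genes come from different probe sets and are not compared.

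None of the 36 genes differed by 2-fold from siCont in siPF or in siB7-H3. Over all 10597 measurable genes, 2.56% were at least 2-fold higher or lower in siPF and 1.69% in siB7-H3, so a count of 0 among 36 genes lies near the background. At a smaller log2 difference of 0.58, about 1.5-fold, 2 of the 36 genes were past it in siPF (GBP1 lower and DTX3L higher) and 0 in siB7-H3, against 10.6% and 8.48% of all genes. The median log2 difference of the 36 genes was 0.06 in siPF, with 23 genes above and 13 below siCont, and 0.00040 in siB7-H3, with 18 above and 18 below. The medians over all measurable genes were 0.018 and 0.017. The range was -0.71 to 0.64 in siPF and -0.55 to 0.50 in siB7-H3.

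To show how far readings of a gene can differ on these arrays, the log2 difference was compared between the 2 brightest probe sets of the same gene. Over 5444 genes with 2 or more probe sets at that level, the gap between them had a median of 0.21 and a 95th percentile of 0.79 in siPF, and 0.20 and 0.76 in siB7-H3. The representative probe sets of all 36 genes differed from siCont by less than that 95th percentile in both comparisons, whereas other probe sets of GBP1 (-0.94) and SP110 (-0.88 and -0.94) lay beyond it in siPF. Probe sets on the same arrays share any error of those arrays, so this gap does not stand in for replicate error. Measurable genes were also put in 10 classes by level, and the SD of the log2 difference was taken within each class, a measure added after the data were seen. In siPF 7 of the 36 genes lay beyond the SD of their class (GBP1, IFI44, ISG15 and IFNAR2 lower, DTX3L, USP18 and JAK1 higher). In siB7-H3 5 genes did (IFIT2 and ISG15 lower, MAVS, OAS3 and IFITM1 higher). These are 19.4% and 13.9% of the 36 genes, beside 23.5% and 25.3% of all measurable genes. Both comparisons use the same siCont array, and a value that is off on that array shifts both.

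**Figure D3:**
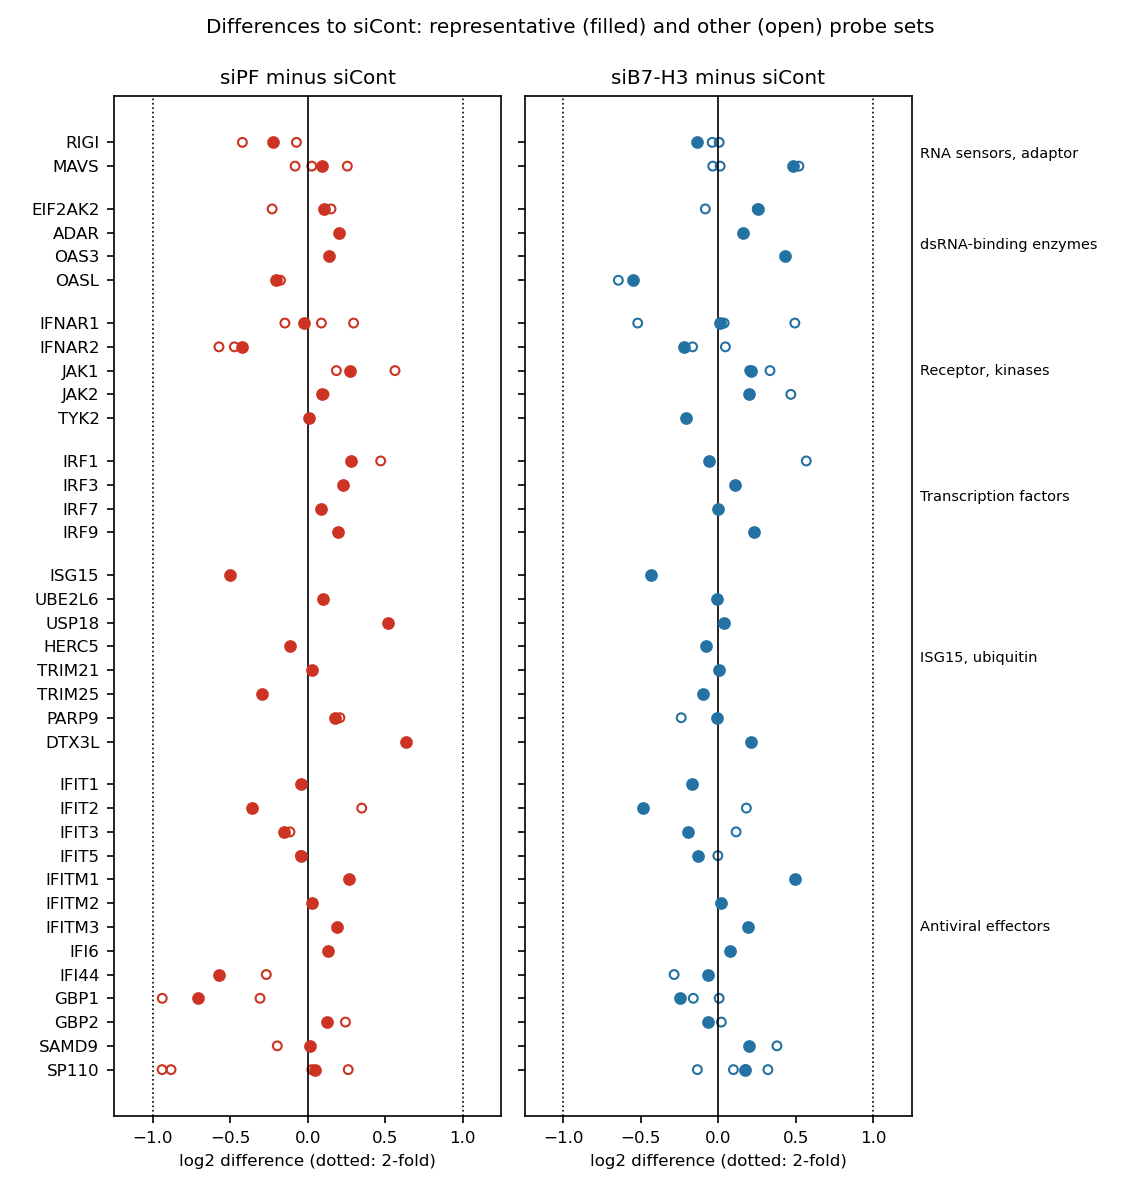
Log2 difference to siCont (horizontal axes) in siPF (left, red) and siB7-H3 (right, blue) for the 36 genes, by role. Filled points are the representative probe sets, open points its other probe sets at the level, and dotted lines mark 2-fold. No point lies beyond 2-fold, and probe sets of IFIT2 and SP110 spread to both sides of 0 in siPF.

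Among the sensors and their adaptor, RIGI and MAVS were measurable. In siCont, siPF and siB7-H3, RIGI had 459.8, 393 and 419, log2 differences of -0.23 and -0.14. Its other probe sets gave -0.42 and -0.07 in siPF, so all 3 were below siCont there, and 0.01 and -0.04 in siB7-H3. MAVS had 928, 988 and 1299, which is highest in siB7-H3 with a log2 difference of 0.48. Of its other 3 probe sets, the dimmest gave 0.52 in siB7-H3 and the brighter pair -0.04 and 0.01, so the higher value rests on part of the probe sets.
IFIH1, DHX58 and TLR3 were dim. IFIH1 had 34.9, 22.6 and 30.04, and DHX58, which regulates the other cytoplasmic sensors, had 6.08, 5.29 and 3.98. TLR3 had 28.7, 53.4 and 22.3, and its other probe sets went the other way in siPF, with log2 differences of -0.88 and -5.16. No direction can be read for these 3 genes.

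The enzymes that bind double-stranded RNA were measurable in 4 of 6 cases. EIF2AK2 encodes PKR, the kinase that halts translation when it binds double-stranded RNA, and had 2585, 2780.2 and 3084. ADAR, which edits adenosine to inosine in double-stranded RNA, had 2541, 2921 and 2836. Both were highest on a knockdown array by at most 0.25 on the log2 scale, and the dimmest EIF2AK2 probe set gave -0.23 and -0.08.
OAS3, which makes 2′-5′ oligoadenylates when it binds double-stranded RNA, had 307, 337 and 414, the highest with siB7-H3 at a log2 difference of 0.43. A dim OAS3 probe set gave 49.5, 45.7 and 21.9, and with the median over both probe sets the difference in siB7-H3 turned to -0.37. OASL, a family member that enhances RIG-I signalling and makes no oligoadenylate, went the other way, with 215, 186 and 147. Its other probe set gave 210.5 and 186 in siCont and siPF, and in siB7-H3 OASL was lower at both probe sets, with log2 differences of -0.55 and -0.65. The SD among genes as dim as OASL was 0.60 in siB7-H3. OAS1 and OAS2 were dim at all their probe sets.

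The interferon receptor and its kinases were all measurable. IFNAR1 had 857, 842 and 862, log2 differences of -0.025 and 0.010, while its dimmest probe sets gave 0.49 and -0.52 in siB7-H3. IFNAR2 had 1292, 964 and 1106. It was lower in siPF at all 3 probe sets, with log2 differences of -0.42, -0.47 and -0.57, and its probe sets gave -0.22, 0.05 and -0.17 in siB7-H3.
JAK1 had 4767, 5752 and 5509, and all 3 of its probe sets at the level were above siCont on both knockdown arrays, by 0.19 to 0.56 in siPF and 0.20 to 0.33 in siB7-H3. JAK2 had 211, 225 and 242 and TYK2 813, 817 and 703, differences of at most 0.21 either way, and a dimmer JAK2 probe set gave 0.47 in siB7-H3.
The transcription factors differed little between arrays. IRF1, an activator induced by interferon gamma, had 596, 723 and 572, and a dimmer probe set of IRF1 gave 221, 306 and 327, so the direction in siB7-H3 depends on the probe set. IRF3, the factor that sensors activate first, had 805, 945 and 868, IRF7 had 217, 229.9 and 217, and IRF9 had 398, 456 and 466. All 4 were above siCont in siPF, with a median of 0.21, within the SD of their level classes. So were 5578 of all 10597 measurable genes above siCont there, with a median of 0.018. In siB7-H3 2 of the 4 were above siCont. IRF3, IRF7 and IRF9 have 1 probe set each.

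ISG15 encodes a ubiquitin-like protein that is attached to other proteins during the interferon response. Its values were 2785, 1968 and 2062, log2 differences of -0.50 and -0.43, at the single probe set that measures it. The siCont array was thus the high one. The conjugating enzymes differed by 0.11 or less. UBE2L6, the conjugating enzyme, had 1582, 1695 and 1576, and HERC5, the main ligase, had 1709, 1581 and 1617. USP18, which removes ISG15 and restrains the interferon receptor, had 826, 1183 and 847, so the siPF array was the high one, with a log2 difference of 0.52.
TRIM25, the ubiquitin ligase that acts on RIG-I, had 938, 765 and 875, and TRIM21, an antibody receptor in the cytoplasm, had 489.7, 499.6 and 491. PARP9 and DTX3L encode partner proteins that act as a complex. DTX3L had 1346, 2091 and 1559, with log2 differences of 0.64 in siPF and 0.21 in siB7-H3 at its single probe set. The former was the largest upward difference among the measurable members in siPF. PARP9 had 934, 1057 and 929.9, log2 differences of 0.18 and -0.01, and another probe set gave 0.21 and -0.24. HERC6 was dim.

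Among the antiviral effectors, 13 of 21 were measurable. GBP1, a GTPase of the guanylate-binding family, had 1910.3, 1167 and 1610.5, log2 differences of -0.71 and -0.25. The other GBP1 probe sets at the level gave 1342, 700.3 and 1200.2, and 1207, 975 and 1211. GBP1 was therefore lower in siPF at all 3, with log2 differences of -0.94 to -0.31, and of -0.25 to 0.01 in siB7-H3. GBP2 had 392, 427 and 375 and did not share the lower value.
IFI44 had 4547, 3053 and 4351, a log2 difference of -0.57 in siPF and -0.06 in siB7-H3. Its other probe set gave 835, 694 and 685, or -0.27 and -0.29, so the size of the difference, and the array it falls on, changed with the probe set.
The IFIT genes encode proteins that bind foreign RNA ends. IFIT1 had 437, 424 and 389, IFIT3 had 831, 746 and 725, and IFIT5 had 1075, 1045 and 980.1. IFIT2 had 440.3, 342 and 314, log2 differences of -0.36 and -0.49, whereas its other probe set gave 0.35 and 0.18. The other probe set of IFIT3 gave 475, 438 and 514, so it was above siCont in siB7-H3, by 0.11, where the representative gave -0.20. The representative probe sets of all 4 genes were below siCont on both knockdown arrays, but the other probe set of IFIT2 was above siCont on both and that of IFIT3 in siB7-H3, and the IFIT2 gap between probe sets was larger than any of these differences.
The IFITM genes encode membrane proteins that block virus entry and have near-identical sequences, so their probe sets may share transcripts. IFITM1 had 172, 207 and 242, a log2 difference of 0.50 in siB7-H3. IFITM2 had 5379, 5481 and 5453 and IFITM3 had 5536, 6302 and 6313, differences of at most 0.19.
IFI6, an interferon-induced membrane protein, had 482, 528 and 508, and SAMD9, a restriction factor of poxviruses, had 565, 569 and 648. Another SAMD9 probe set gave log2 differences of -0.20 and 0.38. SP110, a nuclear body protein, had 911, 940.2 and 1027. Of its other 4 probe sets at the level, a pair lay near siCont in siPF (0.26 and 0.03), whereas the dimmest pair was lower there, from 405 to 220.0 and from 233 to 122, log2 differences of -0.88 and -0.94. In siB7-H3 this pair gave -0.14 and 0.32. These SP110 probe sets were picked out after their values were seen.

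Probe sets were compared for 18 of the 36 genes, those with 2 or more at the level. Every such probe set differed by at least 0.3 on the log2 scale in the same direction for 2 of 18 genes in siPF (IFNAR2 and GBP1, both lower) and for 1 of 18 in siB7-H3 (OASL, lower). The same was seen for 10.5% and 8.38% of 5444 genes, so these counts are near the background. The limit of 0.3 was chosen after the data were seen.

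**Figure D4:**
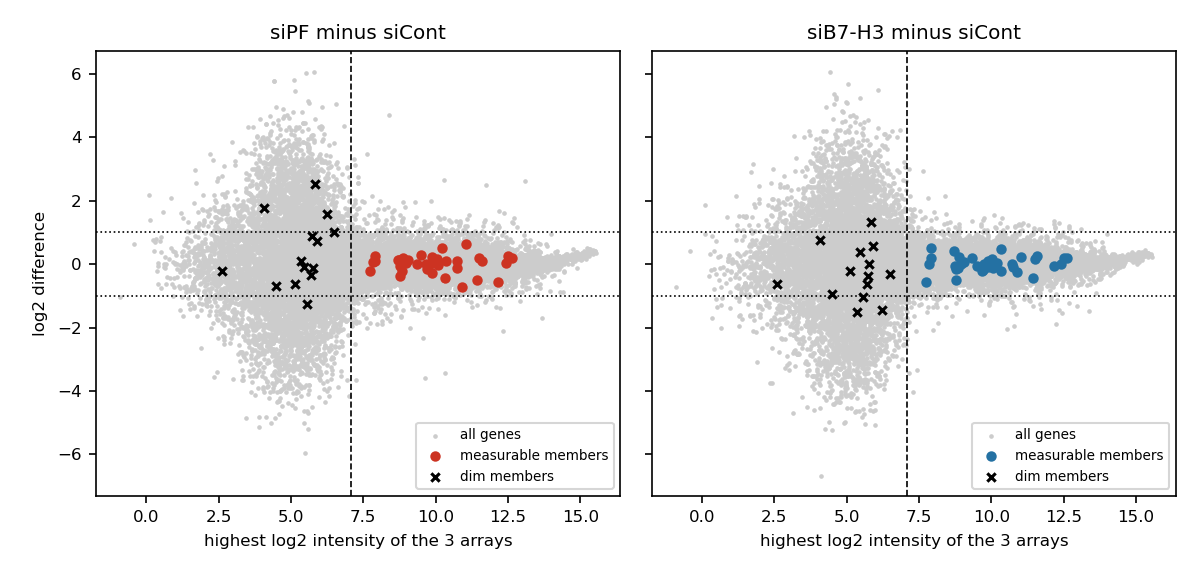
Log2 difference to siCont (vertical axis) against the highest log2 intensity of the 3 arrays (horizontal axis) for all 19752 genes (grey), the 36 measurable members (coloured) and the 14 dim ones (black crosses), in siPF (left) and siB7-H3 (right). Differences spread widely left of the dashed line at 7.08, where the members past 2-fold lie.

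Among the dim genes, 5 of 14 were at least 2-fold from siCont in siPF and 4 of 14 in siB7-H3, against 38.2% and 37.3% of all 9155 dim genes. In siPF RSAD2, BST2, IFI27 and MX2 were higher and IFI44L was lower. In siB7-H3 RSAD2 was higher, and OAS1, IFI27 and IFI44L were lower. RSAD2, which encodes viperin, had 9.98, 57.1 and 25.0, and its other probe set gave 35.3, 28.5 and 6.63, the opposite direction on both knockdown arrays. IFI27 had 24.8, 75.0 and 9.02, BST2, the virus tether tetherin, had 4.96, 16.9 and 8.33, and IFI44L had 47.6, 19.9 and 23.3. MX1, the GTPase commonly used as a readout of interferon, had 52.3, 41.1 and 34.0 and MX2 44.2, 90.0 and 35.7. OAS1 had 38.4, 41.0 and 13.5, OAS2 33.8, 31.6 and 44.1, IFI35 22.5, 13.9 and 11.7, XAF1 35.8, 59.8 and 52.9, and HERC6 54.6, 50.2 and 54.3. The dim members thus went both ways.

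**Figure D5:**
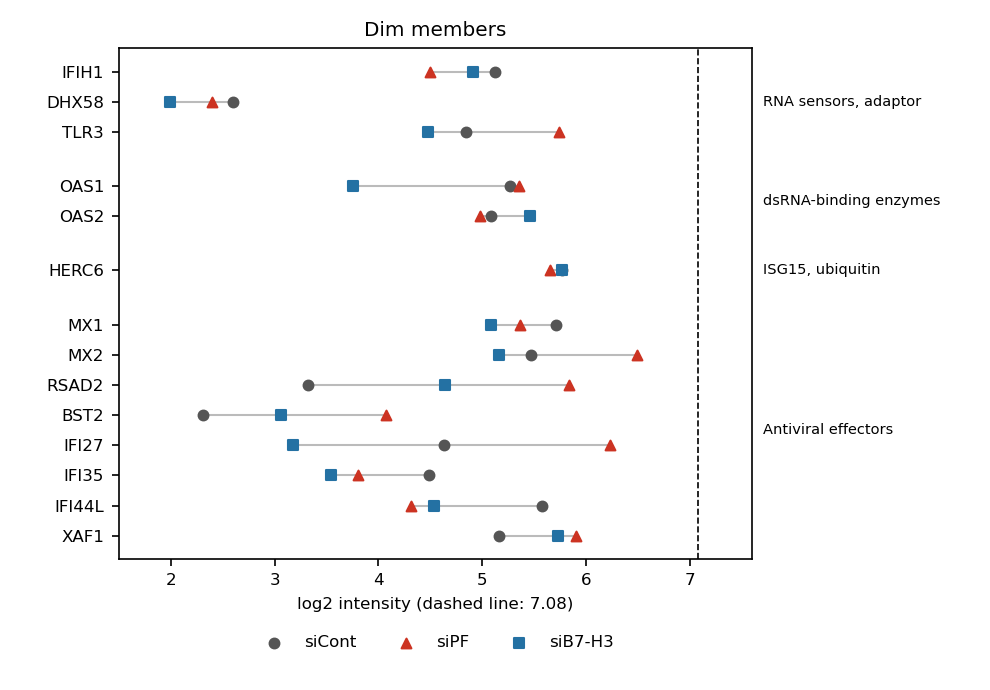
Log2 intensity (horizontal axis) of the 14 dim genes, 1 point per array, by role. All points lie left of the dashed line at 7.08, with MX2 in siPF the nearest, at an intensity of 90.0.

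A further 72 genes of the pathway were listed beside the members, of which 67 were measured and 43 were measurable. Of these 43 genes 1 was at least 2-fold from siCont in each comparison, near the 2.56% and 1.69% of all measurable genes. It was LSM14A, a protein of RNA processing bodies that also takes part in antiviral sensing. It had 1382, 3174 and 2968, log2 differences of 1.20 and 1.10. Its other probe sets gave 914, 2559 and 2961, and 641, 798 and 1124, higher in both knockdowns at all 3 and past 2-fold at 2 of them in each. The siCont array was thus the low one, and both comparisons use it. The median of the 43 genes was 0.079 in siPF and 0.097 in siB7-H3. None of the 8 measurable brakes on the pathway, among them SOCS1 and SOCS3, was 2-fold from siCont, against the same shares of all measurable genes.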

How the data were processed

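The authors hybridized biotin-labelled target to 3 arrays, 1 per condition, and, per the submitters' processing notes, used Affymetrix Expression Console 1.4.1. The authors deposited an intensity, not in log form, for each of 54675 probe sets. The summarization method is not given in the sources used here, detection calls were not used, and the number of arrays limits the precision. Genes came from the platform annotation (41091 probe sets with 1 gene, 1801 with several, 11721 with none, 62 controls), with symbols checked by gene ID, and those with 1 gene were used. Intensities were taken to log2 with no floor or pseudocount, the siCont value was subtracted, and no test between conditions was made. All members were named by role, and other probe sets were given for some of them, chosen after their values were seen. The members, lists and roles were chosen with earlier results of these data known. Alternatives covered other probe set rules, scalings, levels and a floor. Calculations were made with pandas 2.3.3, numpy 2.4.6 and scipy 1.17.1 in Python 3.11.15, and figures with matplotlib 3.10.9. The choice of the brightest probe set, the 2-fold call and the equality of arrays after quantile scaling were tested on simulated data. The other alternatives were not tested in this way. STAT2, TDRD7, RNF125 and MYMK are not analysed here, and some other listed genes are not reported here.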

Additional observations from a re-analysis of the deposited data

How the results depend on the processing

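With 1 array per condition no array could be left out, and no paired analysis was possible because no condition had a second array. The count of 0 genes past 2-fold in siPF was the same under every other probe set rule and scaling tried. Not all of these kept the 36 genes. The median over all probe sets left 35 at the level. Leaving out probe sets that may bind several transcripts left 27. The other levels and the floor kept the same 36 genes with the same values, so they could not change that count. With the smaller log2 threshold of 0.58 it was 2, as given above. For siB7-H3 it was 0 under all of these with a single exception. With the median over all probe sets of a gene it was 1, TRIM25, through a dim probe set that went from 102 to 23.7. The list's median difference on the log2 scale moved by less than 0.1 under every alternative, between 0.029 and 0.090 in siPF for probe set rules and scalings. Of 414 values of single genes recomputed under other rules and scalings, 409 moved from the reported value by less than the SD of their level class and 5 moved by more (IFI44 and JAK1 in siPF, MAVS, OAS3 and TRIM25 in siB7-H3), of which OAS3 turned to -0.37 with the median over its probe sets and MAVS to -0.01. Many of the 414 could not move. The floor changed no measurable member, and the probe set rules return the same value for a gene with a single probe set. Of 60 values from other probe sets at the level, 14 differed from the representative by more than that SD. Differences of the 14 dim genes have no usable size or direction here.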
